A study of Mus musculus with 8 samples.

Results

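The cells described here are CD8 T cells from mouse tumours that carried mRNA of Pdcd1, the gene of the inhibitory receptor PD-1, but no detected mRNA of Tcf7 or Havcr2. They were chosen from raw counts of unique molecular identifiers (UMIs, each standing for 1 captured mRNA molecule) in 4 single-cell expression libraries. A barcode, which stands for 1 droplet, needed at least 500 genes, under 10% mitochondrial UMIs, at least 1 UMI of Cd8a or Cd8b1, at least 1 UMI of Cd3d, Cd3e or Cd3g and no Cd4. It could hold at most 1 UMI of the macrophage genes Lyz2, C1qa, C1qb and C1qc together, at most 1 of the cycling genes Mki67 and Top2a together, fewer than 5 of Gzmc, Gzmd, Gzme and Gzmf together, and fewer than 10 of Gzma. Within this gate, at least 1 UMI of Pdcd1 and 0 UMIs of Tcf7 and Havcr2 were required. The rule gave 3110 of 36011 barcodes, called Pdcd1-only cells below, and measured values of the gate genes chose them, so those values are a description.

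All mice were wild-type C57BL/6 with palpable tumours of MC38, a colon carcinoma line, and the labels give neither their age nor how many animals were pooled into a library. In experiment 1 the groups were buffer and 10 mg/kg of rhIL-7-hyFc, a human interleukin 7 fused to a hybrid Fc and given under the skin, with tumours taken after 7 days. CD8 cells were enriched there on magnetic beads by positive selection. In experiment 2 both groups received 1.25 mg/kg of rhIL-7-hyFc, and the combination group also received TCE, a T cell engager that binds mouse PD-L1 and CD3ε, into the vein from 3 days later, with tumours taken 24 hours after the last dose. The labels write its schedule as 3 times daily, which can be read in more than 1 way. The cells of experiment 2 were sorted as live CD45+ TCRb+ CD8a+ cells. Each group is 1 expression library with its paired T cell receptor (TCR) library, so no difference between groups has a replicate check, and the 95% intervals cover counting error only. Because dose, timing and isolation differ, libraries were compared within an experiment, and values of all 4 are listed in the order buffer, 10 mg/kg, 1.25 mg/kg and combination.

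PD-1 is induced by signals through the TCR and dampens them, and chronically stimulated T cells in tumours keep it. Such cells are often described along a path from TCF-1-expressing progenitors, which self-renew (Tcf7 encodes TCF-1), to terminally differentiated cells that carry TIM-3 (encoded by Havcr2), and states between these ends are known. Interleukin 7 supports the survival of T cells that carry its receptor. On GRCm38, Pdcd1 lies on chromosome 1 from 94038305 to 94052553, and Tcf7 (52252371 to 52283014) and Havcr2 (46454935 to 46481255) both lie on chromosome 11.

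The gate left 918, 356, 1634 and 2699 cells with Pdcd1. Of these, 423, 174, 980 and 1533 were Pdcd1-only cells, which is 46.1% (42.8 to 49.4), 48.9% (43.6 to 54.2), 60.0% (57.6 to 62.4) and 56.8% (54.9 to 58.7). Over all depths, Pdcd1-only cells were the largest class of Pdcd1 cells in each library. Cells with Tcf7 and no Havcr2, called Tcf7 cells, numbered 155, 135, 248 and 477. Cells with Havcr2 and no Tcf7, called Havcr2 cells, numbered 323, 41, 368 and 662, and 17, 6, 38 and 27 cells held both. The Pdcd1-only share of the Pdcd1 cells had overlapping intervals in experiment 1, and the intervals of the experiment 2 libraries overlapped only narrowly.

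The share depended on how deeply a cell was sampled, because Tcf7 and Havcr2 at 0 UMIs can also mean that their molecules were missed. Among Pdcd1 cells with fewer than 3000 UMIs, Pdcd1-only cells made up 67.6%, 84.6%, 75.9% and 79.5%. Among those with at least 10000 UMIs they made up 30.9%, 37.4%, 31.01% and 29.7%. They were then no longer the largest class, except for a tie with Tcf7 cells at 1.25 mg/kg. Havcr2 cells made up 44.2% in buffer at that depth, and Tcf7 cells 40.5% at 10 mg/kg, 31.01% at 1.25 mg/kg and 33.3% in the combination. The median UMI count of Pdcd1-only cells was 5941, 8509, 5105 and 5031. It was below that of Tcf7 cells (8226, 9933, 6194 and 5853) and of Havcr2 cells (8139, 12673, 5734.5 and 5888) in each library. The share among Pdcd1 cells was 81.2% and 89.1% after every cell was thinned to 1300 UMIs in experiment 1, and 74.8% and 70.9% at 3000 UMIs in experiment 2, with 160, 27, 470 and 317 shallower cells of the gate left out. Both experiment 2 shares keep the 1.25 mg/kg library above the combination.

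**Figure D1:**
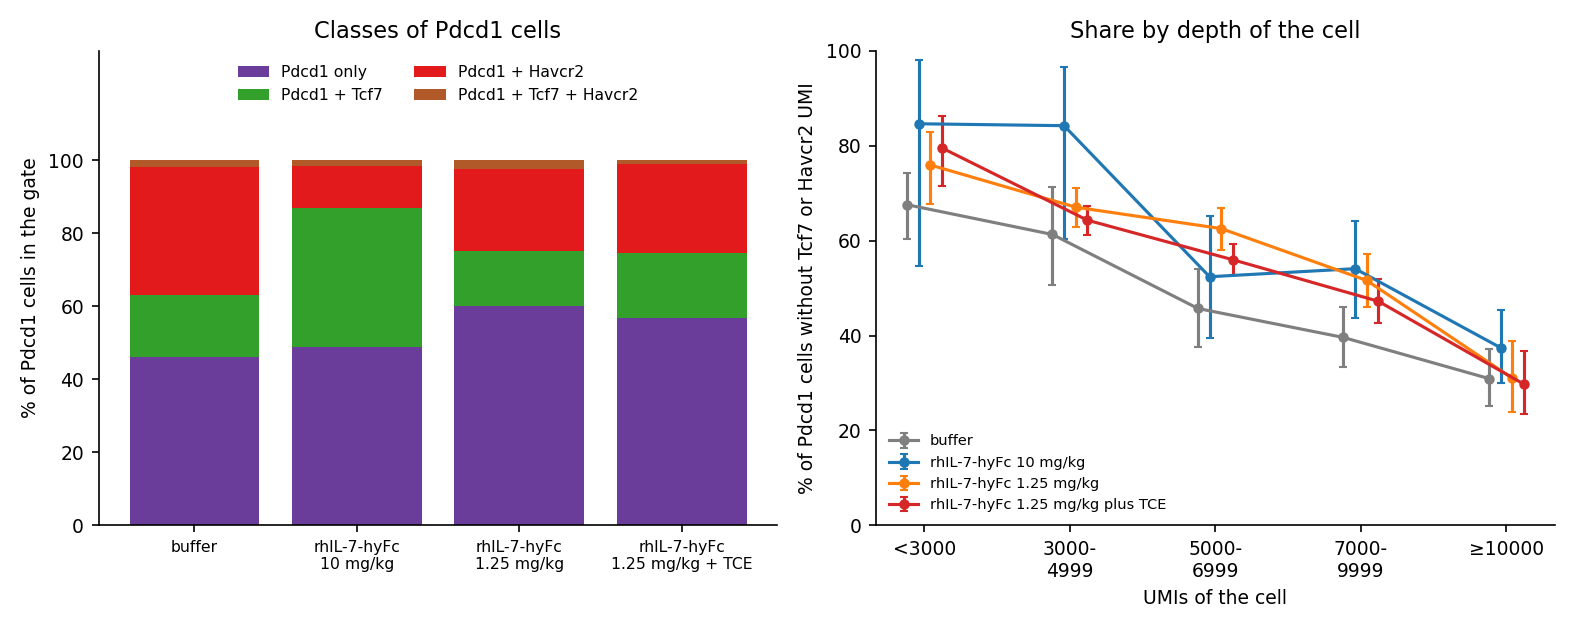
Left, percent of the gate's Pdcd1 cells in each class, by library. Right, percent that were Pdcd1-only against the UMIs of the cell, 1 line per library, with 95% counting intervals: in every library the share falls from at least 67.6% under 3000 UMIs to at most 37.4% from 10000 UMIs.

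The Pdcd1 cut is low, and its nearest cells differed between the experiments. Pdcd1-only cells with exactly 1 Pdcd1 UMI numbered 136, 50, 124 and 188, and those with 4 or more numbered 174, 86, 622 and 1048. Just outside the other cuts, 82, 62, 128 and 237 Tcf7 cells held exactly 1 Tcf7 UMI, and 167, 19, 228 and 355 Havcr2 cells held exactly 1 Havcr2 UMI. The limit on cycling genes had removed 578, 247, 572 and 966 Pdcd1 cells. The limit on Gzmc to Gzmf had removed 643, 295, 1158 and 2000, and that on Gzma 60, 20, 94 and 611. The cells described are thus non-cycling cells low in these granzymes, not all Pdcd1 cells of the tumour.

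The rule required CD8 and CD3 genes, so their presence does not check the label. Lck, the kinase that starts TCR signals and that the rule did not use, had a UMI in 86.5%, 97.7%, 92.7% and 94.0% of Pdcd1-only cells. As a background, barcodes with at least 10 UMIs of the macrophage genes and none of the CD3 and CD8 genes (61, 105, 582 and 64 barcodes, with median UMI counts of 8556, 13611, 5712.5 and 6229) held an Lck UMI in 14.8%, 9.52%, 3.78% and 1.56% of cases. They held a Pdcd1 UMI in 6.56%, 2.86% and 1.72% of cases, and in 0 of 64 in the combination library. For Lag3, the share with a UMI was 72.8%, 63.2%, 83.1% and 84.0% in Pdcd1-only cells against 14.8%, 3.81%, 1.72% and 0% in the macrophage barcodes. Barcodes shared by a pair of libraries numbered 45 to 195, and at most 3 of them were Pdcd1-only cells in both.

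RNA of other cells was present in the Pdcd1-only cells at unequal levels. The limit on the macrophage genes had kept 3183 of 3915, 5436 of 5599, 7209 of 10745 and 10108 of 10844 barcodes that met the conditions before it. It thus removed a larger part of the buffer than of the 10 mg/kg library, and of the 1.25 mg/kg than of the combination library. What part this loss had in differences between libraries was not tested. The 20 macrophage and monocyte markers summed to 3043, 2096, 2680 and 1650 CPM (UMIs of the gene scaled to a total of 1000000), with Lyz1 at 0 in all but the 1.25 mg/kg library, Adgre1 at 0 in the 10 mg/kg and combination libraries, and Csf1r at 0 in the combination library. The 16 dendritic cell markers summed to 2991, 2530, 2349 and 2155 CPM, with Xcr1 at 0 in experiment 1. Of these 16 genes, 7, 5, 6 and 5 reached 10 CPM. The list holds Ccr7, Bst2 and Irf8, which are also in lists of T cell or interferon-response genes used below. Its sum therefore cannot be read as RNA of dendritic cells alone. A minority of cells held much of the myeloid signal. Cells with at least 10 UMIs of 15 myeloid genes were 8.04%, 6.90%, 7.24% and 2.87% of Pdcd1-only cells and held 67.9%, 40.4%, 69.2% and 66.4% of those UMIs. Cells with at least 2 such UMIs were 74.2%, 48.9%, 57.6% and 43.2%. The B cell genes Ms4a1 and Pax5 and the tumour and stroma genes Krt8, Krt19, Cldn4, Col1a2, Dcn and Mgp were at 0 in all 4 libraries. No doublet caller was run. Cells with more than 1 productive beta chain, a sign of 2 T cells in a droplet that can also occur in 1 cell, made up 6.34%, 4.91%, 7.99% and 10.9% of Pdcd1-only cells with a beta chain.

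Classes were compared within each library, and genes were counted that differed in the same direction in all 4. By this count Pdcd1-only cells differed from Tcf7 cells in more genes than from Havcr2 cells. Since Pdcd1, Tcf7 and Havcr2 define these classes, the values describe the classes and test nothing. A gene is called higher or lower below when its CPM plus 1 differed by at least 1.5-fold, and it counts as measured from 10 CPM in at least 1 of the compared sets. Against Tcf7 cells, 96 of 6461 genes measured in all 4 libraries were higher in each of them (1.49%) and 65 were lower (1.01%). Against Havcr2 cells, 14 of 6428 genes were higher in all 4 libraries (0.218%) and 14 were lower (0.218%). The 10 mg/kg library, which each of these counts includes, held only 41 Havcr2 cells, against 135 Tcf7 cells.

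Genes of progenitor, naive and memory cells were among those lower in Pdcd1-only cells than in Tcf7 cells. Of 16 measured stem-like and progenitor genes 7 were lower in all 4 libraries and 0 higher, and of 16 naive and memory genes 8 were lower and 0 higher. Chemokine receptors, integrins and egress genes went both ways, with 6 of 21 lower and 4 higher (Cxcr6, Cx3cr1, Itga1 and Itgav). Ccr7, a receptor that guides cells to lymph nodes, stood at 552, 299, 306 and 480 CPM in Pdcd1-only cells against 1679, 742, 1132 and 1185 CPM in Tcf7 cells. It was lower in Pdcd1-only cells of each library. Lef1, a partner factor of TCF-1, was 3.13-, 2.71-, 4.67- and 2.85-fold lower, and Slamf6, a surface marker of progenitor cells, 2.45-, 3.12-, 2.92- and 3.14-fold lower. S1pr1, which lets T cells leave tissue, was lower as well, at 23.3, 31.1, 11.1 and 7.16 CPM against 64.8, 98.5, 32.0 and 30.4 CPM. Il7r, the receptor chain for interleukin 7, was only 1.13-, 1.34-, 1.07- and 1.20-fold lower.

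Genes of exhaustion, residency and killing were higher in Pdcd1-only cells than in Tcf7 cells. Of 15 measured exhaustion genes 7 were higher in all 4 libraries, of 13 residency genes 5, of 25 effector genes 6 and of 19 cytotoxicity genes 5 (with 1 lower). Entpd1 (CD39, an enzyme that degrades extracellular ATP) stood at 75.7, 51.6, 67.0 and 57.2 CPM against 9.25, 18.6, 14.1 and 11.7 CPM, 8.19-, 2.78-, 4.77- and 4.88-fold higher. Cxcr6, a chemokine receptor of tissue T cells, stood at 390, 359, 401 and 405 CPM against 109, 132, 155 and 124 CPM. Prf1 (perforin, the pore-forming protein) was 3.14-, 3.045-, 2.79- and 3.38-fold higher, Lag3 (an inhibitory receptor) 2.46-, 3.12-, 2.29- and 1.83-fold, and Csf1 (macrophage colony-stimulating factor) 7.82-, 4.42-, 3.89- and 3.73-fold. Tox, a factor of exhausted T cells, was 2.12-, 2.75-, 1.42- and 1.83-fold higher, so that 1 library stayed under the 1.5-fold limit. Type I interferon, ribosomal, oxidative phosphorylation and cycling genes had 0 members higher and 0 lower in all 4 libraries, and of 28 interferon gamma response genes 1 (Serpina3g) was higher. Of the markers of other cells, 0 of 7 macrophage markers differed in all 4, of 5 dendritic cell markers Irf8 was higher and Ccr7 lower, and the 1 measured B cell marker, Ighm, was lower.

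Against Havcr2 cells the difference was in effector molecules more than in exhaustion genes. Of 14 measured cytokine and chemokine genes 4 were lower in all 4 libraries and of 18 cytotoxicity genes 2, while 0 of 16 exhaustion genes and 0 of 25 effector differentiation genes were lower or higher. Ccl3 and Ccl4, inflammatory chemokines, were lower in Pdcd1-only cells: Ccl4 stood at 342, 234, 325 and 110 CPM against 869, 1940, 1197 and 785 CPM. Ccl3 was 4.58-, 3.27-, 7.06- and 14.1-fold lower. Ifng (interferon gamma) was 1.81-, 3.28-, 2.61- and 3.18-fold lower, Prf1 3.06-, 6.104-, 2.27- and 2.36-fold, and Gzmb (granzyme B) stood at 2298, 2260, 1522 and 889 CPM against 5538, 4839, 2959 and 1929 CPM. Tox stood at 122, 70.2, 76.1 and 85.2 CPM in Pdcd1-only cells and at 122, 74.5, 63.2 and 95.5 CPM in Havcr2 cells. Its level thus differed by less than 1.5-fold in each library. Higher than in Havcr2 cells were Cd7, a T cell surface protein (10.99-, 2.53-, 2.44- and 2.91-fold), Emb, a cell adhesion protein (3.91-, 3.90-, 1.76- and 1.72-fold), and Dapl1, a gene of naive and memory T cells (3.66-, 2.25-, 8.95- and 11.1-fold).

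**Figure D2:**
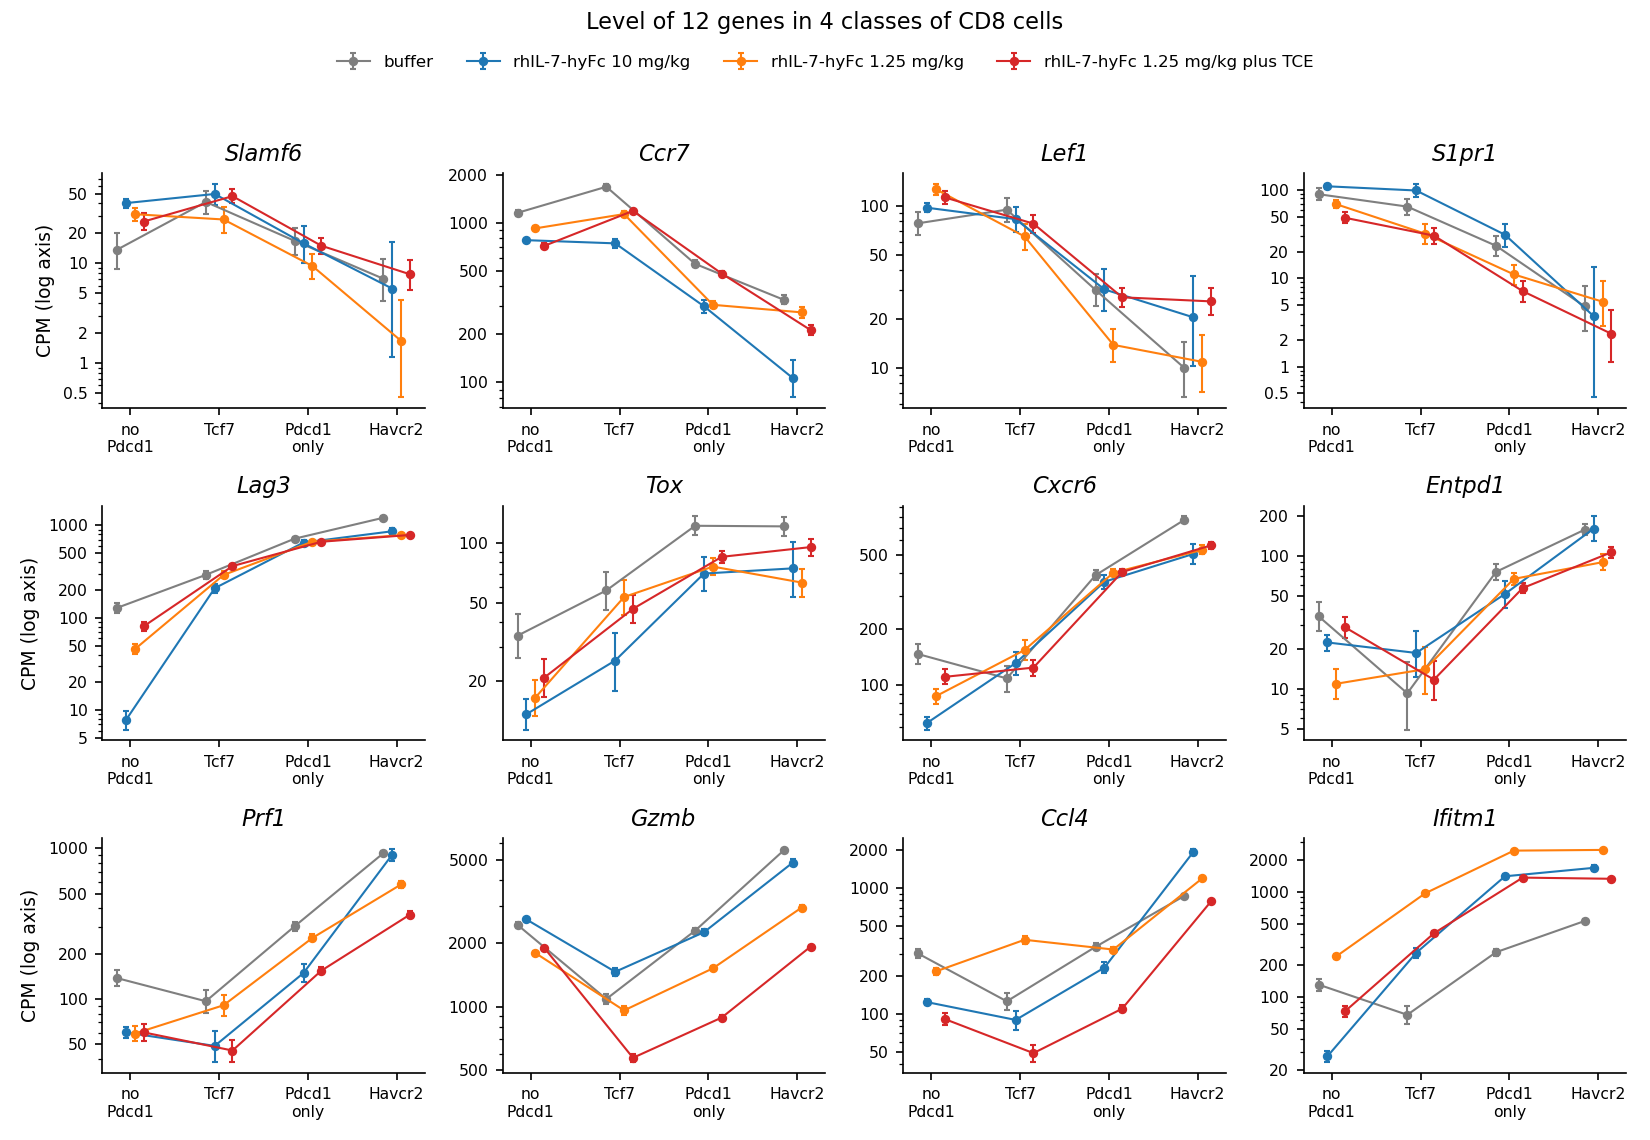
CPM (log axis) of 12 genes in cells of the gate with none of the 3 genes (no Pdcd1), Tcf7 cells, Pdcd1-only cells and Havcr2 cells, 1 line per library with 95% Poisson bars. S1pr1 is lower in Pdcd1-only than in Tcf7 cells and lower again in Havcr2 cells in every library, Prf1 and Cxcr6 run the other way, and Tox is near its Havcr2 level in Pdcd1-only cells.

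Cells of the same gate with 0 UMIs of Pdcd1, Tcf7 and Havcr2 numbered 378, 1099, 1174 and 810 and differed more. In Pdcd1-only cells 200 of 6463 genes were higher in all 4 libraries (3.09%) and 118 were lower (1.83%). Lag3 stood at 717, 651, 664 and 664 CPM against 128, 7.83, 45.6 and 80.8 CPM. Ccr8, a chemokine receptor, stood at 157, 120, 95.8 and 86.6 CPM against 14.8, 2.11, 5.46 and 8.10 CPM, and Nrgn, which encodes a calmodulin-binding protein, at 40.9, 39.1, 238 and 465 CPM against 7.69, 0.423, 11.6 and 31.7 CPM. These genes were all higher in Pdcd1-only cells of each library. Tnfsf11, the cytokine RANKL, was 4.75-, 7.22-, 7.495- and 8.75-fold higher, Tox 3.60-, 5.14-, 4.60- and 4.08-fold, and Ifng 3.13-, 5.35-, 4.41- and 5.06-fold. Gzmb did not follow them and was 1.07-, 1.15-, 1.18- and 2.14-fold lower in Pdcd1-only cells.

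In experiment 1, Pdcd1-only cells of the 10 mg/kg library carried more interferon-response RNA than those of the buffer library, and less RNA of several exhaustion genes, of perforin and of cell cycle genes. Of 7251 measured genes, 270 were higher (3.72%) and 884 lower (12.2%) in the 10 mg/kg library, and the median log2 ratio of all measured genes was -0.10. Scaling with trimmed mean of M values (TMM) factors moved that median to 0.01 and gave 424 higher and 658 lower genes, so the excess of lower genes depends in part on scaling. List medians are therefore read against the median of all genes. Of 423 and 174 cells, the smaller group sets the precision. Clonotypes of at least 5 cells held 57.1% of Pdcd1-only cells with a clonotype in buffer and 36.8% at 10 mg/kg. Tox, Lag3, Prf1 and Ifitm1 were higher, and Lef1 and Oasl2 lower, in such cells than in cells of clonotypes seen once (below). What part this make-up had in the differences between the libraries was not tested.

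The type I interferon response was the list with the largest share of higher genes. In the 10 mg/kg library 20 of 32 measured genes were higher and 0 lower, with a median log2 ratio of 0.61. Their summed level was 18151 CPM against 11879 CPM in buffer. Cmpk2, an interferon-induced nucleotide kinase, stood at 169 against 76.5 CPM (2.21-fold, 1.83 to 2.67), and Oas2, a sensor of double-stranded RNA, at 29.8 against 14.9 CPM (2.00-fold). Ifit3b stood at 141 against 63.9 CPM (2.21-fold, 1.79 to 2.72), although its reads may be shared with the near-identical Ifit3. Among 29 genes of the interferon gamma response, 6 were higher and 0 lower (median 0.25). Igtp, a GTPase of that response, stood at 378 against 179 CPM (2.12-fold, 1.87 to 2.40), and the overlapping Irgm2 at 25.8 against 11.5 CPM. With each clonotype counted as 1 unit, the median of the type I list was 0.37, and among cells with at least 6000 UMIs it was 0.71.

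Among the named genes, Ifitm1 and Gzmm had the highest ratios in the 10 mg/kg library. Ifitm1, an interferon-induced membrane protein that restricts virus entry (chromosome 7, 140967221 to 140969825), stood at 1411 against 267 CPM, 5.29-fold higher (4.85 to 5.77), with a UMI in 78 of 174 against 110 of 423 cells. In the macrophage barcodes Ifitm1 stood at 686 and 390 CPM and had a UMI in 61.9% and 42.6%, more often than in the Pdcd1-only cells, and what part this had in the difference was not tested. Against Tcf7 cells of the same library, Ifitm1 was 5.36-fold higher in the 10 mg/kg and 3.95-fold higher in the buffer Pdcd1-only cells. Gzmm, a granzyme (chromosome 10, 79689020 to 79695261), stood at 32.4 against 5.74 CPM (5.65-fold, 3.12 to 10.9). Ifitm3, a relative of Ifitm1, stood at 995.02 against 456 CPM (2.18-fold), and it is also abundant in the macrophage barcodes (7062 and 5793 CPM).

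Other genes higher in the 10 mg/kg library spanned transport, signalling and memory. Slco3a1, an organic anion transporter, stood at 54.9 against 17.2 CPM (3.19-fold, 2.20 to 4.70) and Dapl1 at 50.3 against 20.3 CPM (2.48-fold, 1.73 to 3.59). P2ry14, a receptor for nucleotide sugars, stood at 58.3 against 26.8 CPM (2.18-fold, 1.57 to 3.02), and Tnfsf8, the ligand of CD30, at 36.4 against 15.3 CPM. Xcl1, a chemokine for cross-presenting dendritic cells, stood at 513 against 242 CPM (2.12-fold), but 1 of the 174 cells held 242 of its 775 UMIs, and with each clonotype counted as 1 unit its log2 ratio was 0.34. Nr4a1, an early gene of TCR signals, stood at 412 against 278 CPM (1.48-fold, 1.33 to 1.65), just under the 1.5-fold limit.

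The exhaustion list had 8 of 19 measured genes lower and 2 higher in the 10 mg/kg library, with a median of -0.57. Tox stood at 70.2 CPM against 122 CPM in buffer, 1.74-fold lower (1.40 to 2.19). Id2, a regulator of effector fate, was 1.70-fold lower (1.55 to 1.87) at 388 against 660 CPM, and Ctla4, an inhibitory receptor, 1.501-fold (1.32 to 1.71) at 224 against 336 CPM. Cd200 stood at 7.94 against 19.9 CPM and Prdm1, which encodes BLIMP-1, at 6.62 against 15.7 CPM. The inhibitory receptors Lag3 and Tigit moved less. Lag3 stood at 651 against 717 CPM (1.10-fold lower, 1.02 to 1.19) and Tigit at 273 against 322 CPM. Entpd1 was just under the 1.5-fold limit, at 51.6 against 75.7 CPM (1.47-fold lower, 1.12 to 1.93).

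Killing and activation genes were mixed in experiment 1. Prf1 stood at 149 CPM in the 10 mg/kg library against 304 CPM in buffer, 2.04-fold lower (1.76 to 2.38), while Gzmb was nearly level at 2260 against 2298 CPM (1.02-fold, 0.975 to 1.06). Ifng was 1.56-fold lower (1.36 to 1.80) and Tnfrsf4, the costimulatory receptor OX40, 1.88-fold lower (1.61 to 2.21). Rgs1, a brake on chemokine receptor signals in tissue T cells, stood at 317 against 698 CPM (2.20-fold lower, 1.99 to 2.44), and Klf2, a factor that drives S1pr1, at 69.5 against 159 CPM (2.28-fold lower, 1.84 to 2.86). Cxcr6 (359 against 390 CPM) and Il7r (136 against 152 CPM, 1.11-fold lower, 0.939 to 1.32) differed by less than 1.5-fold. Of 28 residual cycling genes 15 were lower and 0 higher (median -0.60), and Cdk1, a kinase that drives mitosis, had 11.1 CPM in buffer and 0 UMIs in the 10 mg/kg library, at least 5.58-fold lower by a floor of 3 UMIs. The median of this list is the same with Cdk1 set to that bound. The gate had capped Mki67 and Top2a together at 1 UMI per cell, whatever the depth of the cell. The median UMI count of Pdcd1-only cells was 5941 in buffer and 8509 at 10 mg/kg. What part this cap had in the cycling values was not tested.

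The other lists had smaller shares of genes past the limit in experiment 1 or more lower than higher genes. The list of interleukin 7 and STAT5 response genes, which lie downstream of the drug's receptor, had 2 of 23 genes lower and 0 higher (median -0.02). Of 21 early genes of TCR signals 5 were lower and 1 higher (median -0.14), and of 20 glycolysis and hypoxia genes 5 were lower and 0 higher (median -0.31). The stem-like list had 4 of 17 genes higher and 3 lower, the naive and memory list 2 of 15 higher and 3 lower, the effector list 4 of 25 lower, the cytotoxicity list 2 of 19 lower and 1 higher, and the residency list 3 of 16 higher and 3 lower. Chemokine receptors, integrins and egress genes (5 of 22 lower, 1 higher), costimulatory receptors (5 of 14 lower, 1 higher), receptors of the natural killer type (5 of 15 lower, 2 higher), cytokines (4 of 15 lower, 2 higher) and AP-1 and heat shock genes (5 of 23 lower, 0 higher) had more lower than higher genes. Ribosomal and oxidative phosphorylation genes had 0 of 44 and 0 of 34 genes in either direction. Marker lists of other lymphocytes had few measured genes, with 2 of 6 CD4 and regulatory T cell markers, 2 of 3 gamma delta T markers, 1 of 2 B cell markers and 1 of 1 neutrophil marker lower, and 1 gamma delta T marker higher. The 1 measured tumour and stroma marker, Areg, differed by less than 1.5-fold.

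Genes of myeloid cells had the largest ratios of the comparison. Of 15 measured macrophage and monocyte markers 13 were lower in the 10 mg/kg library and 0 higher (median -2.81), and of 7 dendritic cell markers 5 were lower. Cd74, the invariant chain of MHC class II, stood at 21.2 against 468 CPM, and H2-Eb1, a class II chain, at 1.32 against 82.6 CPM. Fabp5, a fatty acid binding protein, was 5.15-fold lower (3.56 to 7.67), but its log2 ratio was -1.11 without the cells that held at least 10 myeloid UMIs. Il1r2, a decoy receptor for interleukin 1 listed with the neutrophil markers, stood at 7.28 against 45.1 CPM (6.20-fold lower, 3.34 to 12.8). Il1r2 also differed with clone size among Pdcd1-only cells in every library (below), and which cells its RNA came from was not tested. Cst3 (1 buffer cell with 675 of 1677 UMIs) and Hspa1a (1 buffer cell with 82 of 204 UMIs, near-identical to Hspa1b) rested in part on single cells. Without the cells that held at least 10 myeloid UMIs, 328 genes were higher and 883 lower, the macrophage median was -2.27, the type I interferon median 0.66, the exhaustion median -0.69, Tox -0.84, Prf1 -1.19 and Ifitm1 2.30. The macrophage median over genes thus stayed strongly negative. The cells left out had, however, held 67.9% of the UMIs of the 15 myeloid genes in buffer and 40.4% at 10 mg/kg. Without the cells that held at least 2 myeloid UMIs, 880 genes were higher and 1842 lower among fewer cells, the macrophage median was -2.62, the type I interferon median 0.74, the exhaustion median -0.89, Tox -0.85, Prf1 -2.05 and Ifitm1 3.15. What part RNA of myeloid cells had in the other differences was not tested.

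**Figure D3:**
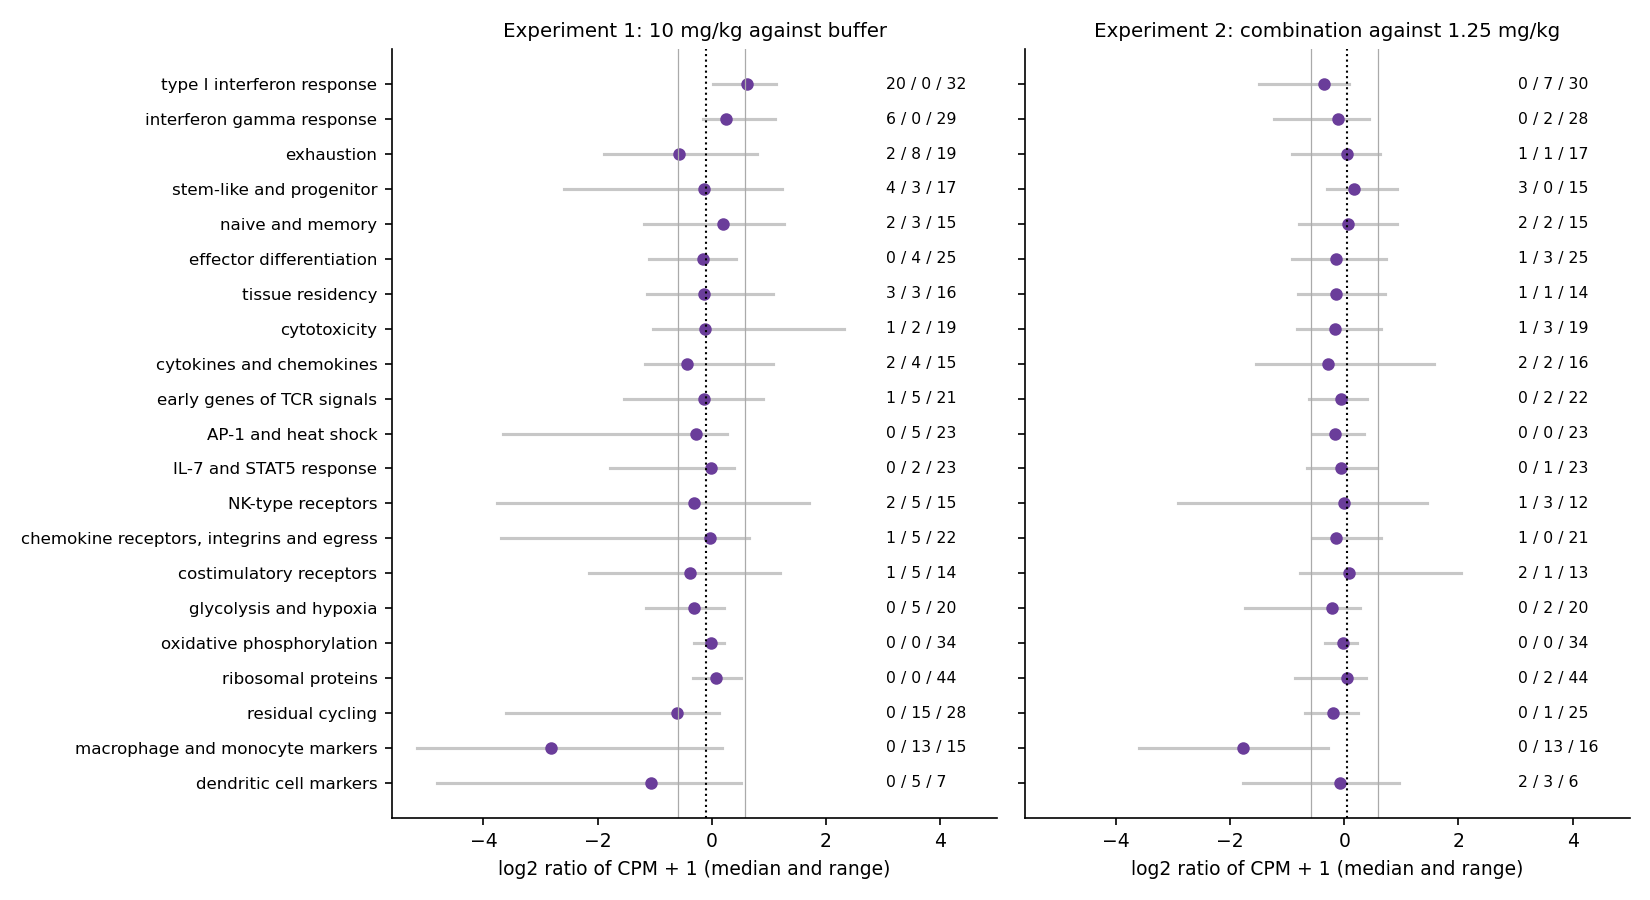
Median (points) and range (grey bars) of the log2 ratio of CPM + 1 in Pdcd1-only cells for each gene list, in experiment 1 (10 mg/kg against buffer) and experiment 2 (combination against 1.25 mg/kg), with the numbers of genes higher, lower and measured. The dotted line is the median of all measured genes; the type I interferon list is at 0.61 in experiment 1 and -0.35 in experiment 2, and the exhaustion list at -0.57 and 0.04.

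In experiment 2, Pdcd1-only cells of the combination library carried less RNA of granzyme B, perforin, Ccl4 and interferon-induced genes than those of the 1.25 mg/kg library, and more of Nrgn, Slc16a11, Tigit and some progenitor genes. Of 7504 measured genes, 182 were higher (2.43%) and 172 lower (2.29%) in the combination library, with a median log2 ratio of 0.05 over all measured genes.

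The genes higher in the combination library were not led by effector genes. Slc16a11, a monocarboxylate transporter (chromosome 11, 70212752 to 70216417), stood at 51.5 against 16.6 CPM, 3.10-fold higher (2.46 to 3.93), with a UMI in 265 of 1533 against 65 of 980 cells. In macrophage barcodes it stood at 0 and 0.291 CPM. Nrgn (chromosome 9, 37544492 to 37552904) stood at 465 against 238 CPM (1.95-fold, 1.83 to 2.08), with a UMI in 54.6% against 39.1% of cells and in 0% and 1.37% of macrophage barcodes, and in 45.1% against 30.8% of Pdcd1-only cells thinned to 3000 UMIs. Both differences were therefore spread over many cells. Mt1, a metallothionein, stood at 143 against 61.7 CPM (2.31-fold, 2.05 to 2.62), and Mmd, Tcp11l2 and Wdr95 were 1.94- to 2.12-fold higher. Cd81 (1 cell with 46 of 96 UMIs), Ccl1 (58 against 31 cells with a UMI) and Fscn1, an actin bundler of mature dendritic cells (19 against 15 cells), rested on few cells. Without the cells that held at least 2 myeloid UMIs, the log2 ratio of Ccl1 was -0.067.

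Progenitor and inhibitory receptor genes were level or higher in the combination library. Of 15 measured stem-like genes 3 were higher and 0 lower (median 0.16). Lef1 stood at 27.2 against 13.8 CPM (1.97-fold, 1.51 to 2.59), Slamf6 at 15.04 against 9.42 CPM (1.60-fold, 1.15 to 2.26) and Ccr7 at 480 against 306 CPM (1.57-fold, 1.48 to 1.66). Tigit, an inhibitory receptor for CD155 (chromosome 16, 43648867 to 43664146), stood at 524 against 340 CPM (1.54-fold, 1.46 to 1.63). Lag3 stood at 664 CPM in both libraries (1.00-fold, 0.959 to 1.04), and Tox at 85.2 against 76.1 CPM (1.12-fold, 0.991 to 1.27). Ctla4 was 1.31-fold higher (1.23 to 1.40) and Il7r 1.28-fold higher (1.20 to 1.37), both under the limit. Of 17 exhaustion genes only Tigit was higher and only Id2 lower (149 against 281 CPM, 1.89-fold, 1.75 to 2.04).

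Effector genes lower in the combination library included secreted and killing proteins. Gzmb stood at 889 against 1522 CPM, 1.71-fold lower (1.66 to 1.77), and Prf1 at 154 against 254 CPM, 1.65-fold lower (1.53 to 1.78). Ccl4 stood at 110 against 325 CPM (2.95-fold lower, 2.73 to 3.20), and Ifng at 128 against 184 CPM (1.44-fold lower, 1.32 to 1.57). Macrophage barcodes held 1372 and 2689 CPM of Ccl4, and without the cells that held at least 10 myeloid UMIs its log2 ratio was -1.06. Gzmb reversed with the gate: with the limits on cycling genes, Gzmc to Gzmf and Gzma dropped, its log2 ratio was 0.19. Gzmk, a granzyme of memory-type cells, was 1.57-fold higher (1.34 to 1.83) at 69.4 against 44.3 CPM, but -0.12 on the log2 scale with each clonotype counted as 1 unit. Zfp683, which encodes the residency factor HOBIT, stood at 15.6 against 28.1 CPM, and Ly6c2 at 2175 against 3785 CPM, with reads that near-identical Ly6c genes may share.

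Interferon-response genes were lower in the combination library. Of 30 measured type I interferon genes 7 were lower and 0 higher (median -0.35), and their summed level was 8706 against 12417 CPM. Oasl1, an interferon-induced regulator of translation, stood at 27.1 against 50.04 CPM (1.85-fold lower), Oas2 at 3.10 against 10.53 CPM, and Cxcl10, an interferon-induced chemokine, at 67.0 against 158 CPM (2.36-fold lower, 2.12 to 2.63). Ifitm1 stood at 1372 against 2479 CPM, and at 1443 and 1319 CPM in the macrophage barcodes. Myeloid genes were lower as well: of 16 macrophage and monocyte markers 13 were lower and 0 higher (median -1.78), with Apoe at 1.55 against 25.9 CPM and the chemokine Ccl2 at 4.54 against 67.8 CPM. Without the cells that held at least 10 myeloid UMIs the macrophage median was -0.38, while the type I interferon median was -0.31, Gzmb -0.81, Prf1 -0.74, Nrgn 0.90, Slc16a11 1.60 and Tigit 0.59. Without the cells that held at least 2 myeloid UMIs the macrophage median was -0.32, the type I interferon median -0.23, Gzmb -0.59, Prf1 -0.50, Nrgn 1.16, Slc16a11 1.66 and Tigit 0.81. Prf1 was then under the 1.5-fold limit, and no direction turned among these values.

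The remaining lists differed in how many genes were past the limit in experiment 2. The interleukin 7 and STAT5 response list, for a drug that both groups received, had 1 of 23 genes lower and 0 higher (median -0.06). Early genes of TCR signals had 2 of 22 lower and 0 higher, AP-1 and heat shock genes 0 of 23 in either direction, and cycling genes 1 of 25 lower. The naive and memory list had 2 of 15 genes higher and 2 lower, the effector list 1 of 25 higher and 3 lower, the cytotoxicity list 1 of 19 higher and 3 lower, and the residency list 1 of 14 higher and 1 lower. Of 28 interferon gamma response genes and of 20 glycolysis and hypoxia genes 2 each were lower. Markers of CD4 and regulatory T cells had 0 of 5 genes in either direction, and of gamma delta T cells 0 of 1. Of 16 cytokines and chemokines 2 were higher and 2 lower, of 12 receptors of the natural killer type 1 was higher and 3 lower, of 13 costimulatory receptors 2 were higher and 1 lower, and of 21 chemokine receptors, integrins and egress genes 1 was higher. Dendritic cell markers had 2 of 6 higher and 3 lower, neutrophil markers 1 of 2 lower and B cell markers 1 of 1 lower, while the 1 measured tumour and stroma marker was past the limit in neither direction. Ribosomal and oxidative phosphorylation lists were level, with 2 of 44 and 0 of 34 genes lower.

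The TCR, which the rule did not use, showed that most Pdcd1-only cells belonged to expanded clonotypes in 3 of the 4 libraries. A clonotype is a beta chain V gene with its CDR3 nucleotides, the variable stretch that contacts the antigen, taken from cells with exactly 1 productive beta chain, and it is called expanded from 5 cells in its library. Pdcd1-only cells with a clonotype numbered 266, 155, 702 and 1091. Of these 57.1% (51.0 to 63.2), 36.8% (29.2 to 44.9), 73.2% (69.8 to 76.5) and 70.8% (68.0 to 73.4) were in expanded clonotypes, and 30.5%, 49.0%, 15.1% and 14.7% in clonotypes seen once. In experiment 1 the expanded share was lower in the 10 mg/kg library, with intervals that do not overlap, and 155 cells drawn from buffer would hold 102 clonotypes against the 121 observed at 10 mg/kg. A clonotype was found for 62.9% of Pdcd1-only cells in buffer and 89.1% at 10 mg/kg. The cut of 5 cells also depends on how many cells of a library were sampled. In experiment 2 the intervals overlapped.

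Pdcd1-only cells lay between Tcf7 and Havcr2 cells in expansion. Expanded clonotypes held 14.2%, 7.69%, 27.4% and 34.8% of Tcf7 cells, 82.9%, 61.5%, 85.2% and 86.1% of Havcr2 cells, and 10.6%, 0.409%, 3.96% and 6.42% of cells with none of the 3 genes. In each library the order was the same. Some Pdcd1-only cells may be Tcf7 or Havcr2 cells whose UMIs were missed, and what part this had in the order was not tested. The expanded share of Pdcd1-only cells with at least 2 Pdcd1 UMIs was 67.6%, 46.1%, 78.0% and 73.5%, higher than over all of them.

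The same clonotypes were found in the neighbouring classes. Among Pdcd1-only cells of clonotypes with at least 2 cells (185, 79, 596 and 931), 71.9%, 30.4%, 71.6% and 74.97% had a clonotype that also held Havcr2 cells. The Havcr2 cells with a clonotype that were available to share with numbered 240, 39, 257 and 490. A clonotype that also held Tcf7 cells was borne by 25.4% (19.3 to 32.3), 36.7% (26.1 to 48.3), 30.7% (27.0 to 34.6) and 55.6% (52.4 to 58.9). The Tcf7 share was thus higher in the combination than in the 1.25 mg/kg library, where 345 and 146 Tcf7 cells with a clonotype were available to share with. Cells above the Gzmc to Gzmf limit shared clonotypes with 75.1%, 70.9%, 85.1% and 85.8%, and cycling cells with 79.5%, 70.9%, 72.7% and 71.0%. Seen from the other side, 73.8%, 48.7%, 85.6% and 90.0% of Havcr2 cells but 11.8%, 12.5%, 27.4% and 39.4% of Tcf7 cells had a clonotype with Pdcd1-only cells. Clonotypes that spanned Tcf7, Pdcd1-only and Havcr2 cells numbered 8 of 77, 2 of 45, 20 of 173 and 46 of 230.

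The clonotype with most Pdcd1-only cells in each library shows how its cells were spread over the classes, although other clonotypes held more cells in all in 3 libraries, and its CDR3 beta sequence is printed 5′ to 3′ with the first and last codons in capitals, which encode the conserved ends of the loop.
Buffer, TRBV12-2 or TRBV13-2 with TRBJ2-7: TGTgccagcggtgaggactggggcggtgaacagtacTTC
10 mg/kg, TRBV15 with TRBJ2-7: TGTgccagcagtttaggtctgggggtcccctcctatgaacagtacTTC
1.25 mg/kg, TRBV16 with TRBJ2-5: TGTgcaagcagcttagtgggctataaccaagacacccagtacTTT
Combination, TRBV16 with TRBJ2-5: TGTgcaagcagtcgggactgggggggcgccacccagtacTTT
The buffer clonotype held 68 cells, of which 23 were Pdcd1-only and 15 Havcr2 cells. At 10 mg/kg, 11 of 21 cells were Pdcd1-only, 3 were Tcf7 cells and 0 were Havcr2 cells. At 1.25 mg/kg, 32 of 132 cells were Pdcd1-only, 12 were Havcr2 cells and 40 were above the Gzmc to Gzmf limit. The combination clonotype was the largest of these 4, with 513 cells, of which 86 were Pdcd1-only, 80 Havcr2 cells, 5 Tcf7 cells, 52 cycling and 244 above the Gzmc to Gzmf limit. These clonotypes made up 8.65%, 7.10%, 4.56% and 7.88% of their library's Pdcd1-only cells with a clonotype, so that no clonotype held most of them.

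Within the Pdcd1-only cells, clone size divided the cells by state. Members of expanded clonotypes (152, 57, 514 and 772 cells) were set against those of clonotypes seen once (81, 76, 106 and 160 cells), and 116 of 6393 genes were higher in all 4 libraries (1.81%) and 89 lower (1.39%). Of 15 measured exhaustion genes 8 were higher and 0 lower, of 25 effector genes 6 were higher, of 17 stem-like genes 7 were lower, and of 15 naive and memory genes 6 were lower. The 6 macrophage markers measured in all 4 libraries and the 23 cycling genes had 0 genes that differed in all 4. Of the other marker lists, 1 of 4 dendritic cell markers (Irf8) and the 1 measured neutrophil marker (Il1r2) were higher, and the 1 measured B cell marker (Ighm) was lower. Chemokine receptors, integrins and egress genes went both ways, with 5 of 21 higher and 5 lower. With at least 2 Pdcd1 UMIs required, 62 genes were higher and 56 lower.

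Cells of expanded clonotypes were richer in inhibitory receptors and perforin. Lag3 stood at 964, 1130, 780 and 775 CPM against 261, 240, 275 and 300.2 CPM in cells of clonotypes seen once, 3.70-, 4.71-, 2.84- and 2.58-fold higher. Prf1 stood at 393, 234, 282 and 185 CPM against 86.3, 75.2, 81.0 and 73.1 CPM. Rgs16, a regulator of G protein signals, was 3.78-, 3.46-, 2.98- and 2.21-fold higher, and Tox 4.29-, 3.62-, 1.73- and 3.54-fold. These folds were above the limit in all 4 libraries. Ifitm1 was 4.27-, 5.31-, 5.83- and 2.95-fold higher in the expanded cells, at 341, 2394, 3067 and 1652 CPM. Areg (amphiregulin, a ligand of the EGF receptor) stood at 56.4, 127, 75.2 and 68.4 CPM against 1.63, 3.13, 6.75 and 19.4 CPM, 34.6-fold (6.01 to 1388), 40.5-fold (10.8 to 342), 11.1-fold (4.28 to 41.3) and 3.52-fold (2.16 to 6.14) higher, where the cells seen once held 1, 2, 4 and 17 UMIs. Macrophage barcodes held 0, 12.01, 66.2 and 17.7 CPM of Areg. Gzmb went the other way, 1.14-, 1.58-, 1.22- and 1.63-fold lower in the expanded cells. The gate had left out cells above the Gzmc to Gzmf limit. Of those with a clonotype, 81.4%, 68.0%, 88.8% and 90.3% were in expanded clonotypes. The Gzmb values therefore do not describe all Pdcd1 cells of expanded clonotypes.

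Cells of clonotypes seen once were richer in the T cell surface gene Cd7, in Cxcr4 and in Lef1. Cd7 stood at 66.5, 11.9, 14.96 and 19.1 CPM in expanded cells against 303, 251, 218 and 205 CPM in those seen once, and Cxcr4, the receptor for CXCL12, at 10.1, 9.91, 9.85 and 7.01 CPM against 66.8, 57.9, 62.4 and 50.2 CPM. No library broke this order. Lef1 was 3.97-, 5.53-, 9.54- and 5.27-fold lower and Itgb7, an integrin chain of gut-homing cells, 5.85-, 3.503-, 3.80- and 3.44-fold lower. Oasl2, an interferon-induced gene, was 3.99-, 3.34-, 5.93- and 3.13-fold lower in expanded cells, and 3 of 30 type I interferon genes were lower in all 4 libraries.

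**Figure D4:**
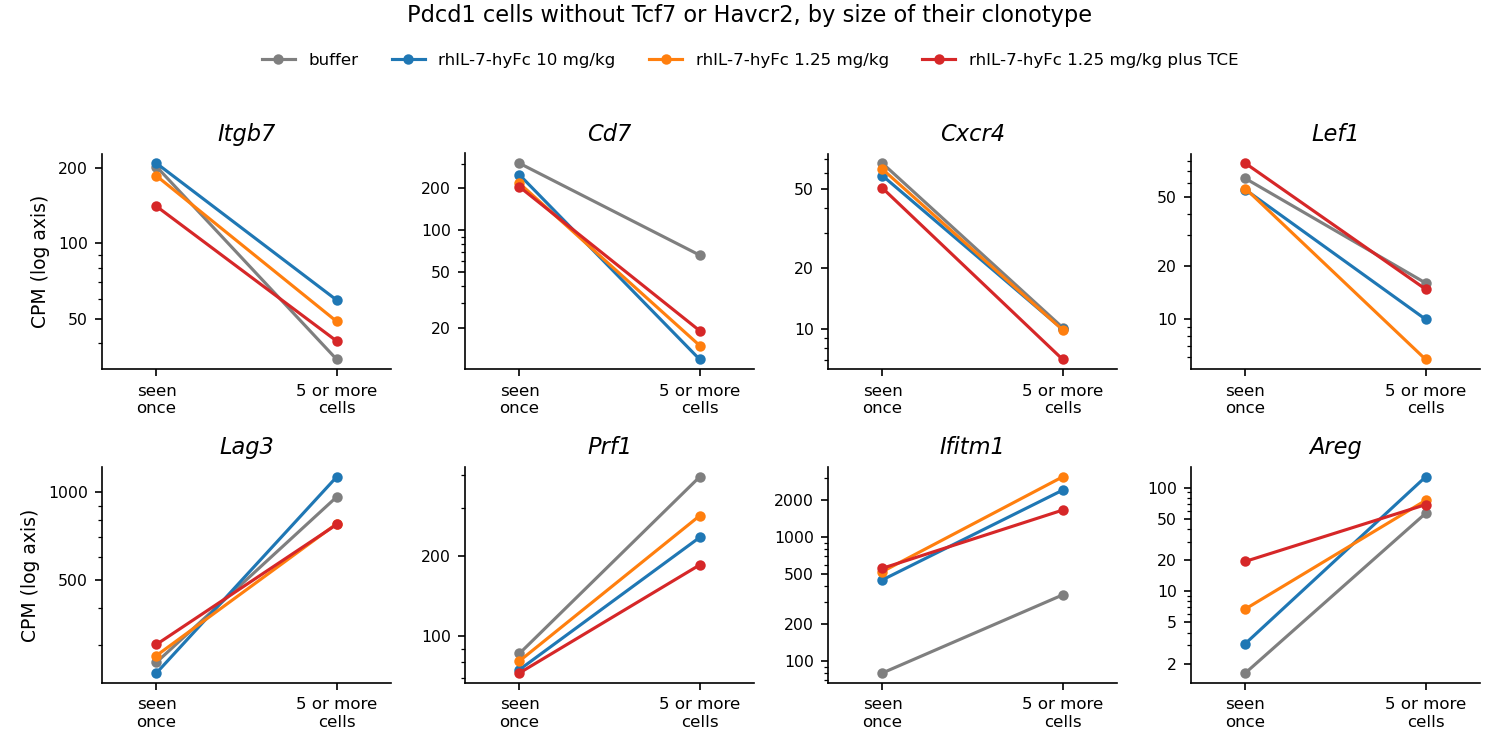
CPM (log axis) in Pdcd1-only cells of clonotypes seen once and of clonotypes with 5 or more cells, 1 line per library. Itgb7, Cd7, Cxcr4 and Lef1 are lower and Lag3, Prf1, Ifitm1 and Areg higher in the larger clonotypes in every library.

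The alpha chains of Pdcd1-only cells used the joining segment TRAJ7 more often than those of cells with none of the 3 genes. This feature was chosen after values were seen, as the largest difference among all TRAJ, TRBV and TRBJ genes compared, so it is a description. Each distinct pair of alpha and beta chains was counted as 1 unit. TRAJ7 was used by 24 of 124 pairs in buffer (19.4%, 12.8 to 27.4), 18 of 89 at 10 mg/kg (20.2%, 12.5 to 30.1), 62 of 245 at 1.25 mg/kg (25.3%, 19.99 to 31.2) and 97 of 341 in the combination (28.4%, 23.7 to 33.6). In cells with none of the 3 genes it was used by 3.20%, 2.30%, 3.41% and 4.48% of pairs, in Tcf7 cells by 8.16%, 5.00%, 11.5% and 14.0%, and in Havcr2 cells by 18.1%, 29.2%, 32.6% and 36.2%. Tcf7 cells were lower than Pdcd1-only cells in each library.

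Most of these alpha chains, all with the joining segment TRAJ7, ended in the same bases. These are set in capitals in the CDR3 of clonotypes with many Pdcd1-only cells and different V genes.
Buffer, TRAV9D-3: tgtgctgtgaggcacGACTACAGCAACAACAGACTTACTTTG
10 mg/kg, TRAV14D-3-DV8: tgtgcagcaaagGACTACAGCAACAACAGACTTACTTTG
1.25 mg/kg, TRAV8D-1: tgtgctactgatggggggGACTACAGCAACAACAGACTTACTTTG
1.25 mg/kg, TRAV10N: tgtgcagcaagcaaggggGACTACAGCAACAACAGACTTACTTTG
The shared stretch is 27 bases long, and the whole loops are 42, 39, 45 and 45 bases. The stretch was taken as the common ending of TRAJ7 chains in these same data. Its shares below therefore largely restate the use of TRAJ7 and are no separate finding. TRAJ7 with this ending was found in 16.9%, 20.2%, 24.9% and 27.6% of the pairs of Pdcd1-only cells and in 2.40%, 1.02%, 2.64% and 4.25% of those of cells with none of the 3 genes. The 39-base alpha loop of the 10 mg/kg clonotype was also carried with TRAV10N in a further 10 mg/kg clonotype and with TRAV7D-2 in a 1.25 mg/kg clonotype. The combination clonotype with most Pdcd1-only cells did not use TRAJ7 but TRAJ30, with TRAV7N-6 and this alpha CDR3, printed with the first and last codons in capitals.
Combination, TRAV7N-6 with TRAJ30: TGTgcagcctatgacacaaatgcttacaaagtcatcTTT

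**Figure D5:**
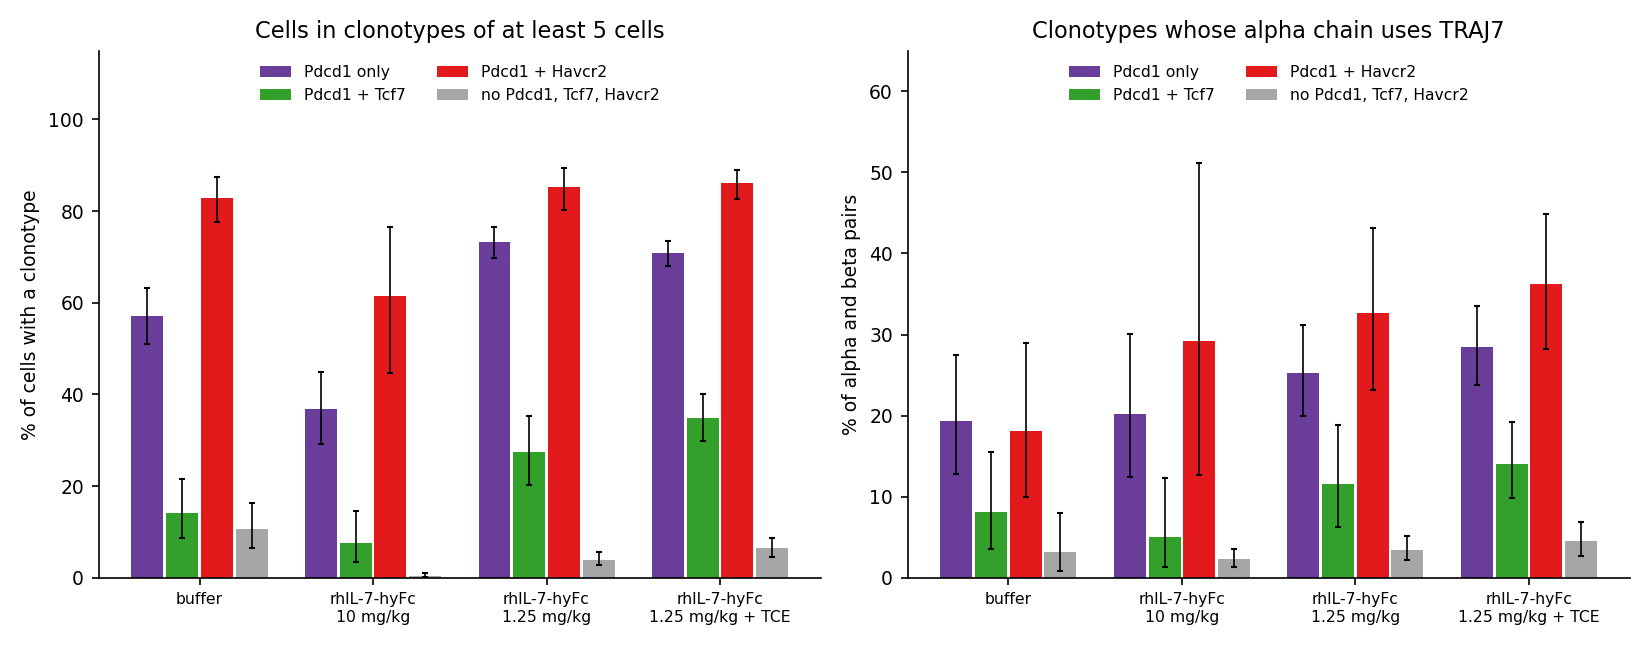
Left, percent of cells in clonotypes of at least 5 cells, and right, percent of distinct alpha-beta pairs that use TRAJ7, by class and library, with 95% counting intervals. Pdcd1-only cells lie between Tcf7 and Havcr2 cells in expansion in every library, and above Tcf7 cells and cells with none of the 3 genes in TRAJ7.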

How the data were processed

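Single-cell expression (10x 5′ chemistry v2) and paired TCR libraries were made per the labels' protocols. Raw UMI counts, 1 value for each gene in each barcode, are what the deposited expression files hold. Their file headers name Cell Ranger, version 4.0.0 in experiment 1 (31053 genes) and 6.1.2 in experiment 2 (32285 genes), and the submitters' processing notes name the build GRCm38. The deposited TCR tables list contigs with UMI counts. The sources used here do not say how reads of near-identical genes were counted. Libraries held 5589, 6361, 12560 and 11501 barcodes and 47308214, 65036440, 118191371 and 92863323 UMIs, and 4697, 5973, 12307 and 11301 cells passed the filters.

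UMIs were summed over the cells of a class and scaled to CPM, with exact Poisson intervals for levels, conditional binomial intervals for folds and Clopper-Pearson intervals for shares. With 1 library per group no test was possible. Log2 ratios use a pseudocount of 1 CPM. The 20 gate genes were left out of counts and of the 26 gene lists. Named genes are, between libraries, the 8 highest and 8 lowest ratios from 50 CPM, the 2 largest ratios per list and a fixed set of receptors and effector genes. Within libraries they are the 8 higher and 8 lower genes with the same direction in all 4, ranked by the smallest of the 4 ratios, with the same fixed set, and for clone size from 50 CPM in 1 of the compared sets in every library. Some of the genes so named are not reported here. Lists and members were chosen with earlier results of these data known. Gene coordinates are from the GRCm38 annotation. Python 3.11.15, numpy 2.4.6, pandas 2.3.3, scipy 1.17.1, matplotlib 3.10.9 and edgeR 4.0.16 (TMM factors) were used, and the scripts were tested on simulated data. Alternatives were other cuts, scalings, depths and units of counting. Leaving out cells with at least 2 or at least 10 myeloid UMIs was added after seeing the data.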

Additional observations from a re-analysis of the deposited data

How the results depend on the processing

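No paired analysis was possible because each group is 1 library. For the same reason no library could be left out. The share of Pdcd1-only cells was 36.0%, 50.1% and 45.7% in the buffer, 1.25 mg/kg and combination libraries from 6000 UMIs. It was 83.9%, 88.4%, 73.5% and 72.2% in the 4 libraries with the gate applied after thinning, and 34.6%, 36.9%, 51.6% and 49.7% without the limits on cycling genes and granzymes. Without cells of at least 2 myeloid UMIs it was 55.6%, 62.7% and 59.5% in buffer, 1.25 mg/kg and combination. In experiment 1 the genes higher numbered 479 from 6000 UMIs, 568 with each clonotype as 1 unit, 424 with TMM and 171 with a pseudocount of 5 CPM. The genes higher and lower were 168 and 358 without the 3 limits, 880 and 1842 without cells of at least 2 myeloid UMIs, 414 and 1343 from 5 CPM, and 80 and 136 from 50 CPM, and 1998 were lower as a mean over cells. In experiment 2 the genes higher numbered 314 from 6000 UMIs, 341 without cells of at least 2 myeloid UMIs and 97 with a pseudocount of 5 CPM. The genes higher and lower were 516 and 416 with each clonotype as 1 unit, 320 and 291 from 5 CPM, and 39 and 54 from 50 CPM. Within libraries, from 50 CPM, genes higher and lower in all 4 were 47 and 16 against Tcf7 cells, 2 and 7 against Havcr2 cells, and 83 and 32 against cells with none of the 3 genes. As a mean over cells 9 were lower than in Havcr2 cells and 128 higher than in cells with none of the 3 genes. With at least 2 Pdcd1 UMIs, 61 were higher than in Tcf7 cells and 8 than in Havcr2 cells, and expanded against once gave 62 and 56. The expanded share was then 67.6%, 46.1%, 78.0% and 73.5%. With paired chains it was 68.9% and 67.2% in experiment 2, and from 6000 UMIs 68.8% at 1.25 mg/kg. Reversed in experiment 2, on the log2 scale, were Fscn1 (-0.50), Gzmb (0.19), Ighm (0.33) and Itgax (0.53) without the 3 limits, Ccl1 (-0.067) without cells of at least 2 myeloid UMIs, and Gzmk (-0.12) with each clonotype as 1 unit. A higher CPM minimum tests fewer genes by construction; the cause of the other shifts was not tested. Of 2498 gene values under alternatives 2111 stayed within the 95% interval of the main value. For list medians the band ran from the median lower to the median upper interval end of the list's genes. That band is about as wide as the interval of a single gene and is not an interval of the list median. Of 673 list medians 624 stayed within it.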

Other observations

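A beta chain of TRBV17 recurred across the libraries, and it was singled out after its values were seen, among 288 pairs of beta chains with the same V gene and length and at least 3 Pdcd1-only cells in each of a pair of libraries. The chain with the CDR3 below held 3 Pdcd1-only cells of 11 cells in buffer, 18 of 90 at 1.25 mg/kg and 14 of 51 in the combination.
TRBV17: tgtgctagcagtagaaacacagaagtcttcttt
The most frequent alpha chain used TRAV5-4 and TRAJ53, in 4 of 5 cells with 1 alpha chain in buffer, 70 of 82 at 1.25 mg/kg and 22 of 45 in the combination. Its CDR3 below was the same in buffer and 1.25 mg/kg and 1 base different in the combination.
TRAV5-4 with TRAJ53: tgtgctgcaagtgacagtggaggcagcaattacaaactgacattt
Exact beta clonotypes of Pdcd1-only cells shared by a pair of libraries numbered 2 to 8, with 8 between the 1.25 mg/kg (of 279) and combination (of 390) libraries.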
